A study of Rattus norvegicus with 12 samples.

Results

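Cytosolic chaperones of the Hsp70, Hsp90 and Hsp110 families and their helpers Dnajb1 and Bag3 were followed in rat brain after an experimental stroke. The members were 10 gene symbols, and every array probe set (a group of short probes read as 1 value) that the array annotation assigns to exactly 1 of these genes was taken. This gave 10 of the 31099 probe sets, for 7 of the 10 genes: Hspa1a, Hspa4, Hspa4l, Hsph1, Hsp90ab1, Dnajb1 and Bag3. Hspa1b, Hspa8 and Hsp90aa1 appear in the annotation only on probe sets shared with another gene and were therefore skipped. The 12 male Sprague-Dawley rats were 8 weeks old. Middle Cerebral Artery Occlusion, a surgical model of stroke, was followed by reperfusion in 7 of them (MCAO), and 5 had a sham operation (Sham). The left hemisphere was taken 24 h after reperfusion, the labels do not say which side was occluded, and each rat gave 1 array.

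Hsp70 proteins bind unfolded stretches of other proteins and release them in a cycle driven by ATP. J-domain proteins such as Dnajb1 deliver clients and start the hydrolysis of ATP, and nucleotide exchange factors, among them the Hsp110 proteins (Hsph1, Hspa4, Hspa4l) and Bag3, end the cycle by releasing ADP. Hsp90 takes over partly folded clients such as kinases and steroid receptors with the help of its own co-chaperones. When unfolded proteins accumulate, heat shock factor Hsf1 binds heat shock elements, inverted repeats of GAA, and raises transcription of many of these genes. Induction of Hsp70 is a long-known feature of brain tissue after ischemia.

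The start regions of 4 members are shown. Hspa1a, Bag3 and Hsph1 were higher in MCAO, and Dnajb1 has a probe set that was. The window of Hsp90ab1, which was higher too, held no match to the element and is not shown. Each sequence runs from 250 bases before to 50 bases after the start used in the table of RefSeq windows, build GRCr8, 5′ to 3′ on the coding strand, and capitals mark every match to GAANNTTC or TTCNNGAA, that is 2 units of the element.
Hspa1a, plus strand, chr20:3859506-3859805: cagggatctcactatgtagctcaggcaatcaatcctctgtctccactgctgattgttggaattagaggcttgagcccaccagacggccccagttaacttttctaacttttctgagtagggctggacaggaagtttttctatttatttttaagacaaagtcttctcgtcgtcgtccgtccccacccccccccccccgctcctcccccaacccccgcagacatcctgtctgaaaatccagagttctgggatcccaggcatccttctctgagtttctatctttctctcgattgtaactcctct
Hsph1, plus strand, chr12:10427118-10427417: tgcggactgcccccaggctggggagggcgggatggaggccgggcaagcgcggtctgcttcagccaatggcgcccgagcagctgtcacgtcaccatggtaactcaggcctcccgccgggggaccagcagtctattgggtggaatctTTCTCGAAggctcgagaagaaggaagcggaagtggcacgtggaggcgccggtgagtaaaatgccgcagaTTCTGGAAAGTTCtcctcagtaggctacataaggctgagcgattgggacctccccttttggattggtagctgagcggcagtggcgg
Dnajb1, minus strand, chr19:41431092-41431391: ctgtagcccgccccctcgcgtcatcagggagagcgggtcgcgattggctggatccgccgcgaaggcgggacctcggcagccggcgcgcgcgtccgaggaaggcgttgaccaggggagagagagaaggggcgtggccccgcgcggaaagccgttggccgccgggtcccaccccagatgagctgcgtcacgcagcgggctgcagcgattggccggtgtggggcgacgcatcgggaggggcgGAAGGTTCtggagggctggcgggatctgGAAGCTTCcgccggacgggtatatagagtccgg
Bag3, plus strand, chr1:192533210-192533509: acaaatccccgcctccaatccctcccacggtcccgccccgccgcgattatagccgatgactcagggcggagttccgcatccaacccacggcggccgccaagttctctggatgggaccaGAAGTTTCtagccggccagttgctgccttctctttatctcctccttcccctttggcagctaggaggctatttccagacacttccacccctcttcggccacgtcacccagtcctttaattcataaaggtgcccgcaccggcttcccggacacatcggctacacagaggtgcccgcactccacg
The longer element of 3 units in alternating orientation (TTCNNGAA followed by NNTTC, or GAANNTTC followed by NNGAA; each is the other read on the opposite strand) stood in the window of 1 of the 7 members. This was Hsph1, with TTCTGGAAAGTTC beginning 36 bases before the start. Of all 33469 RefSeq windows of this length, 0.798% held such an element. The element of 2 units, whose letters read the same on both strands and which was chosen after the data were seen, stood in 4 of the 7 windows against 15.9% of all windows. Matches to it that form part of the longer element were counted too. In Dnajb1 it lay 11 bases before and 17 bases after the start, in Bag3 132 bases before, and in Hspa4l 38 bases after. The windows of Hspa1a, Hspa4 and Hsp90ab1 held no such letters. For Hsp90ab1 and Hspa4 the start used by the window lies 174 and 2159 bases inside the annotated gene, so for these genes the 250 bases before the outermost start were not searched in full, whereas for the other 5 members it is the outermost start. Starts elsewhere in a gene, where there are any, were not searched for any member, Hspa1a included. An empty window therefore does not show that the gene lacks the element. A match describes letters near an annotated start and is not a measured binding site.

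**Figure D1:**
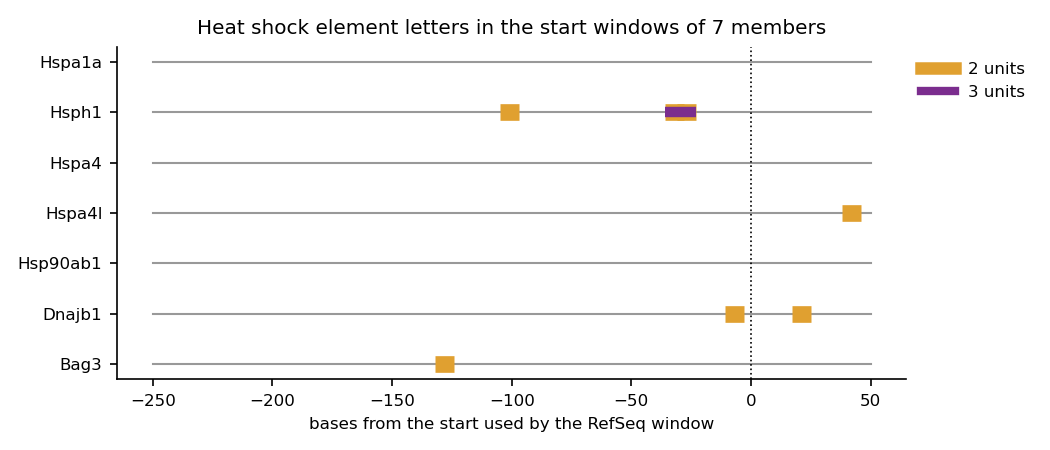
Position of heat shock element letters in the start windows of the 7 members, in bases from the start that the RefSeq window uses (dotted line); orange marks 2 units and purple 3 units. Hsph1 holds the 1 longer element, and the lines of Hspa1a, Hspa4 and Hsp90ab1 are empty.

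Median log2 signals per array ran from 7.23 to 7.27, and the number of arrays limits the precision. Brain markers were present, with mean Sham signals of 13.31 for the synaptic gene Snap25 and 13.62 for the myelin gene Mbp against a detection filter at 6.61. The Mbp values hardly varied between arrays as deposited (SD under 0.01), so only their level can be read. Markers of several cell types differed between the groups. All 4 tested markers of neutrophils and monocytes were higher in MCAO, with a summed linear signal of 615 to 1540 against 353 to 397 in Sham (Mpo and Ccr2 were not tested). Of 7 tested microglia and macrophage markers 4 were higher and 2 lower (summed 1292 to 1950 against 1362 to 1666). All 4 striatal neuron markers were lower (1118 to 1395 against 1989 to 2185), as were 2 of 6 general neuron markers (15777 to 20052 against 19665 to 20989). Of 6 astrocyte markers 1 was higher and 3 were lower (15587 to 18188 against 14025 to 14671). By the same rule 22.2% of all tested genes were higher and 22.1% lower. Among genes whose values varied between arrays the shares were 35.2% and 34.2%, and the 2 of 6 general neuron markers are near the latter. The part of these shifts in the chaperone values was not tested, and in bulk tissue fewer cells of a type and less RNA per cell cannot be told apart. The 3′ minus 5′ signal of beta-actin, a sign of RNA integrity, ranged from 1.27 to 1.47 in 6 MCAO arrays and from 1.40 to 1.46 in Sham (exact two-sided permutation test, p = 0.13). MCAO 6 was left out of this value because its control rows are displaced.

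The design compares brain mRNA between MCAO and Sham rats. Of the 7 member genes 4 rose (Hspa1a, Bag3, Hsph1 and Hsp90ab1), 1 fell (Hspa4l), and 2 (Dnajb1 and Hspa4) did not pass the test. The sizes were very unequal: only Hspa1a and Bag3 were at least 2-fold higher, and Hsph1, Hsp90ab1 and Hspa4l moved by less than 1.5-fold. The test was limma with a Benjamini-Hochberg adjusted p under 0.05 over 12153 genes. Of all tested genes 22.2% were higher and 22.1% lower by the same rule, and 1.79% were higher by at least 2-fold. All 7 members belong to the 6339 genes whose values varied between arrays, of which 35.2% were higher and 34.2% lower. The median log2 change of the 7 members was 0.40, against 0.00 over all tested genes and 0.03 over the varying genes. The remaining 5814 tested genes hardly varied as deposited (near-constant, with an SD under 0.01 over the 12 arrays). All 7 MCAO values lay above all 5 Sham values for 2 members, as for 10.8% of all tested genes.

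**Figure D2:**
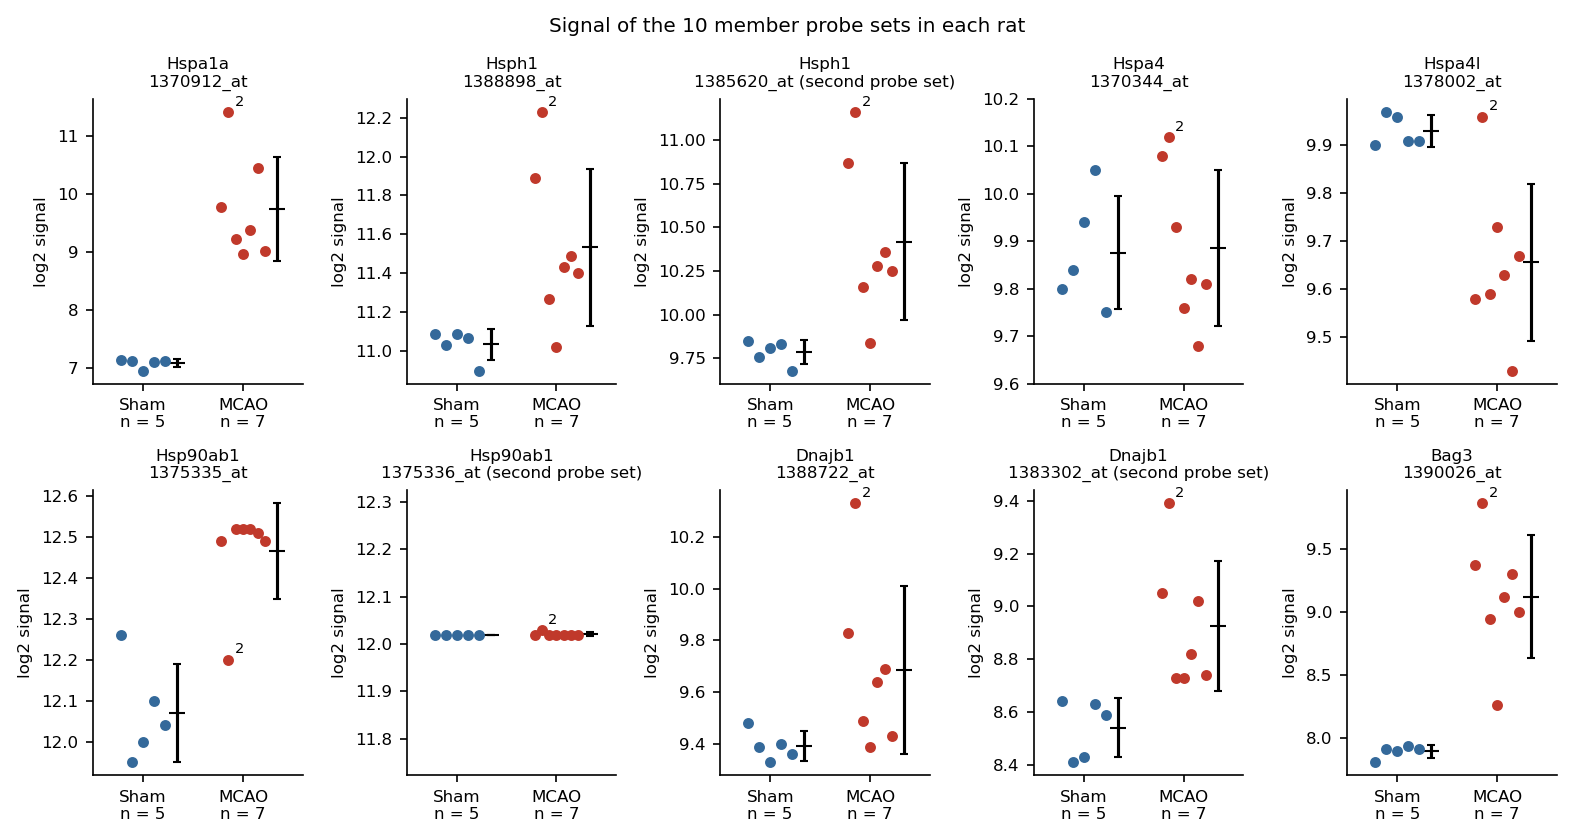
Log2 signal (vertical axis) of the 10 member probe sets in each of the 5 Sham (blue) and 7 MCAO (red) rats, with black marks for the mean and SD; MCAO 2 is numbered. Hspa1a, Bag3 and probe set 1383302_at of Dnajb1 separate the groups. MCAO 2 is the highest rat for Hspa1a, Bag3, Hsph1 and Dnajb1. It lies among the Sham rats for Hspa4l and for the first Hsp90ab1 probe set.

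Hspa1a encodes the main stress-inducible cytosolic Hsp70 (Entrez Gene 24472, probe set 1370912_at). Its log2 signal in the Sham rats was 7.14, 7.11, 6.95, 7.09 and 7.11. In MCAO it ranged from 8.96 (MCAO 4) over a median of 9.37 to 11.42 (MCAO 2). The groups did not overlap, and the lowest MCAO rat stood well above the highest Sham rat. The log2 change was 2.67 ± 0.40 (SE; 7 MCAO and 5 Sham), a 6.34-fold rise (limma adjusted p = 0.00148). By size of rise it ranked 11 of the 12153 genes. The Sham rats were close together (SD 0.08), while the MCAO rats spread over 2.46 log2 units (SD 0.90). Hspa1a and its neighbour Hspa1b are near-identical paralogs, so the probes may read transcripts of both. Without MCAO 2 the change was 2.39.

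By the root mean square difference over the 12 arrays, each value taken relative to the gene's own Sham mean, the tested genes closest to Hspa1a were Atf3 (0.54 log2 units), Emp1 (0.60) and Plin2 (0.62). Atf3 encodes a stress-induced transcription factor, Emp1 an epithelial membrane protein and Plin2 a coat protein of lipid droplets. Their log2 changes were 2.33 ± 0.25 for Atf3, 2.23 ± 0.28 for Emp1 and 2.57 ± 0.24 for Plin2 (SE). The measure takes in the size of the change as well as its course over the rats.

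Bag3 encodes a nucleotide exchange factor of Hsp70 that also routes damaged proteins to autophagy (Entrez Gene 293524, probe set 1390026_at). The Sham values were 7.81, 7.91, 7.90, 7.94 and 7.91. The MCAO values ranged from 8.26 (MCAO 4) over a median of 9.12 to 9.86 (MCAO 2). As for Hspa1a, the groups did not overlap, and MCAO 4 was nearest to the Sham rats. The log2 change was 1.23 ± 0.22 (SE), a 2.34-fold rise (limma adjusted p = 0.0024), and it was 1.11 without MCAO 2. The SD was 0.49 in MCAO and 0.05 in Sham. The genes closest to Bag3 by the same measure were Csrnp1 (0.13 log2 units), Pla1a (0.18) and Sphk1 (0.19). Csrnp1 encodes a nuclear protein, Pla1a a phospholipase and Sphk1 a kinase that makes sphingosine-1-phosphate.

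Dnajb1 encodes the J-domain partner of the inducible Hsp70 (Entrez Gene 361384) and had a pair of probe sets that fell on either side of the threshold. On 1388722_at, the one with the higher mean signal, the Sham values were 9.48, 9.39, 9.33, 9.40 and 9.36. The MCAO values ranged from 9.39 (MCAO 4) over a median of 9.64 to 10.33 (MCAO 2), and 5 of 7 lay above every Sham rat. The log2 change of 0.29 ± 0.15 (SE) did not pass (limma adjusted p = 0.126), with a 95% interval of -0.03 to 0.62. On 1383302_at the Sham values were 8.64, 8.41, 8.43, 8.63 and 8.59, and the MCAO values ran from 8.73 to 9.39 without overlap. Its log2 change was 0.38 ± 0.12 (SE), which passed in a fit over all 17238 single-gene probe sets (limma adjusted p = 0.0238; 22.7% of probe sets were higher there and 19.7% lower). MCAO 2 was the highest rat on both probe sets. Without it, the change on 1388722_at was 0.19.

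Across the 10 probe sets of the members, 6 were higher, 1 was lower and 3 did not pass in that fit. Besides 1388722_at of Dnajb1, those that did not pass were the probe set of Hspa4 and 1375336_at of Hsp90ab1.

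The Hsp110 family, large relatives of Hsp70 that act as its nucleotide exchange factors, went different ways. Hsph1 (Hsp105; Entrez Gene 288444) had Sham values of 11.09, 11.03, 11.09, 11.07 and 10.90 on probe set 1388898_at. In MCAO the signal ranged from 11.02 (MCAO 4) over a median of 11.43 to 12.23 (MCAO 2). MCAO 4 lay within the Sham range and the other 6 rats above it. The log2 change was 0.50 ± 0.18 (SE), a 1.41-fold rise close to the threshold (limma adjusted p = 0.0468). The other probe set, 1385620_at, showed the same course over the rats, with 6 of 7 MCAO rats higher than any in Sham and a log2 change of 0.63 ± 0.20 (SE; limma adjusted p = 0.0287 over all probe sets). The call on 1388898_at was lost when the arrays were rescaled to equal medians (adjusted p = 0.0526) or equal 75th percentiles (0.0535), and without a filter (0.0515). Leaving out any of MCAO 1, 5, 6 and 7 or Sham 1 to 5 also ended it (adjusted p from 0.0585 to 0.0943).

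Hspa4l (Osp94; Entrez Gene 294993, probe set 1378002_at) was the 1 member that fell. Its Sham values were 9.90, 9.97, 9.96, 9.91 and 9.91. In MCAO the signal ranged from 9.43 (MCAO 6) over a median of 9.63 to 9.96 (MCAO 2). MCAO 2 lay within the Sham range, and the other 6 rats were below every Sham rat. The log2 change was -0.28 ± 0.07 (SE; limma adjusted p = 0.0127), and -0.33 to -0.24 with single arrays left out.

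Hspa4 (Apg-2; Entrez Gene 266759, probe set 1370344_at), the constitutive member of the family, had Sham values of 9.80, 9.84, 9.94, 10.05 and 9.75. The MCAO values ranged from 9.68 (MCAO 6) over a median of 9.82 to 10.12 (MCAO 2). The groups overlapped widely, with 2 MCAO rats above and 1 below all Sham rats. The log2 change was 0.01 ± 0.09 (SE; limma adjusted p = 0.94), with a 95% interval of -0.18 to 0.20.

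The differences among these 3 paralogs were tested within each array, which compares their changes and not their levels. The log2 difference of Hsph1 minus Hspa4 was 0.49 larger in MCAO than in Sham (1.65 ± 0.29, SD, n = 7, against 1.16 ± 0.10, n = 5; exact two-sided permutation test, p = 0.00631), with 6 of 7 MCAO rats above all Sham rats. For Hsph1 minus Hspa4l the shift was 0.77 (exact permutation p = 0.00505), and the groups did not overlap. For Hspa4l minus Hspa4 it was -0.29 (exact permutation p = 0.00631), with 6 of 7 MCAO rats below all Sham rats. After adjustment over the 3 pairs each had p = 0.00631 (exact permutation; the smallest p that 7 against 5 rats allow is 0.00126). The changes thus differed within each pair by this test. The pairs are drawn from the same 3 genes, so their results are not independent of each other.

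**Figure D3:**
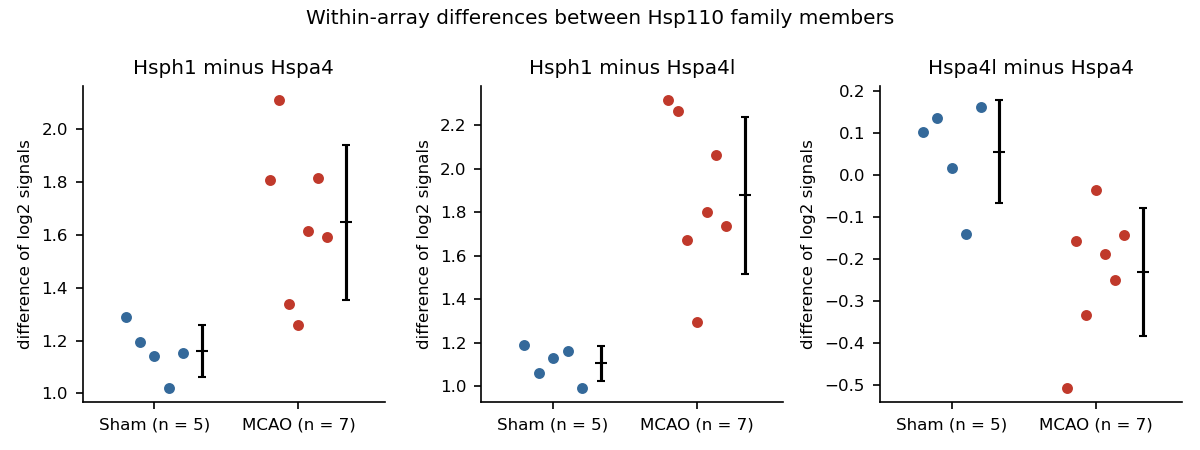
Difference of log2 signals within each array (vertical axis) for 3 pairs of Hsp110 family members in 5 Sham (blue) and 7 MCAO (red) rats; black marks give the mean and SD. Hsph1 minus Hspa4l separates the groups, and in the other pairs 6 of 7 MCAO rats lie outside the Sham range.

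Hsp90ab1 encodes the constitutive cytosolic Hsp90 beta (Entrez Gene 301252). On probe set 1375335_at its Sham values were 12.26, 11.95, 12.00, 12.10 and 12.04. In MCAO 6 of the 7 rats lay between 12.49 and 12.52, above all Sham rats, and MCAO 2 lay within the Sham range at 12.20. The log2 change was 0.40 ± 0.07 (SE), a 1.32-fold rise (limma adjusted p = 0.00216), and 0.44 without MCAO 2. Its other probe set, 1375336_at, read 12.02 or 12.03 on every array. It is among the 62.5% of gene probe sets with an SD under 0.01 in the deposited values, and its log2 change was -0.00037. The mean of both probe sets gave a change of 0.20. Hsp90ab1 was also the 1 member whose SD was not larger in MCAO than in Sham. For the other 6 the SD in MCAO was up to 11.6 times that in Sham. A larger SD in MCAO was found in 89.4% of the varying genes.

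The order of the 7 MCAO rats was much the same for Hspa1a, Hsph1, Dnajb1 and Bag3. MCAO 2 was highest and MCAO 4 lowest for each of them, with Dnajb1 read on its probe set with the higher mean signal. On the other Dnajb1 probe set MCAO 2 was highest too, and MCAO 3 and MCAO 4 were lowest, both at 8.73. MCAO 1 came next after MCAO 2 for Hsph1, Dnajb1 and Bag3, and MCAO 6 for Hspa1a. Hspa4 and Hspa4l were highest in MCAO 2 as well, but lowest in MCAO 6. On 1398240_at, assigned to the constitutive Hspa8 and to Haus8l2, MCAO 2 was also highest (13.34) and MCAO 4 lowest (13.08). How often genes outside the members follow this order was not counted. On 1375335_at of Hsp90ab1 MCAO 2 was the lowest rat, and the other 6 were too close together for their order to be read. In MCAO 4, Hspa1a was 1.88 above its Sham mean, while Hsph1 (-0.01) and Dnajb1 (0.00) were at theirs on the probe sets with the higher mean signal. On the other Dnajb1 probe set MCAO 4 was 0.19 above the Sham mean and above every Sham rat. On the other Hsph1 probe set it was 0.05 above the Sham mean, within the Sham range. In MCAO 2 the differences were 4.34 for Hspa1a, 1.96 for Bag3, 1.19 for Hsph1 and 0.93 for Dnajb1. The numbers of genes that rose and fell among the members were the same without MCAO 2 (4 and 1).

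**Figure D4:**
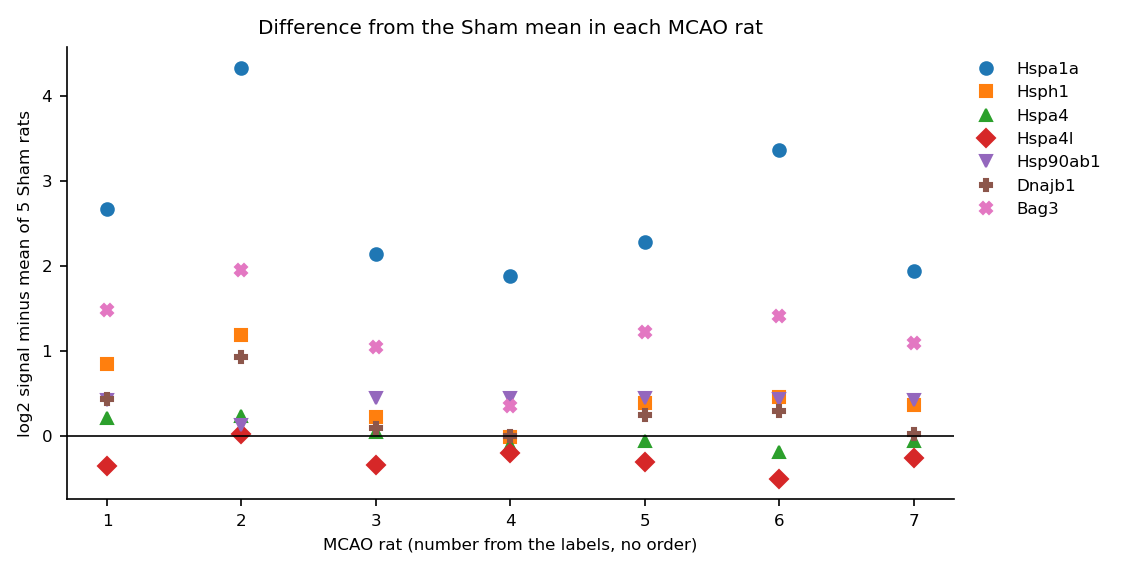
Log2 signal minus the mean of the 5 Sham rats (vertical axis) for the 7 members in each MCAO rat (horizontal axis, numbers from the labels with no order). Hspa1a is highest in every rat, MCAO 2 has the largest differences for Hspa1a, Bag3, Hsph1 and Dnajb1, and in MCAO 4 only Hspa1a, Hsp90ab1 and Bag3 are clearly above 0.

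The wider chaperone network, 62 genes in 5 lists of which 59 were tested, showed smaller changes than Hspa1a. Of its 29 varying genes 16 rose, 4 fell and 9 did not pass, with a median log2 change of 0.21, beside 35.2% higher and 34.2% lower and a median of 0.03 over all varying genes. The other 30 were near-constant. With single arrays left out, 11 to 19 of the tested network genes were higher and 4 or 5 lower.

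The transcription factor genes Hsf1, Hsf2 and Hsf4 were near-constant as deposited, and Hsf1 had a mean of 7.52 and an SD of 0.0001 in both groups. Whether their mRNA changed cannot be read from such values. Of this list of 5 tested genes 2 rose: Hsbp1, whose product binds heat shock factor 1 (0.24 ± 0.07, SE), and Hsf2bp, a partner of heat shock factor 2 (0.57 ± 0.17). The call of Hsbp1 was lost without Sham 2 (limma adjusted p = 0.0528) and that of Hsf2bp without Sham 3 (0.0502).

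Among 8 varying genes of the other Hsp70 and Hsp90 paralogs 5 rose and 1 fell, with a median of 0.25. Hspa2, a further cytosolic Hsp70, rose by 0.68 ± 0.13 (SE; limma adjusted p = 0.00291) and separated the groups. The divergent paralog Hspa12a fell by 0.37 (limma adjusted p = 0.00258), with all MCAO rats below all Sham rats, as for 1279 of the 12153 tested genes. Hsp90b1, the Hsp90 of the endoplasmic reticulum, rose by 0.29 and the mitochondrial Hsp70 gene Hspa9 by 0.31, both picked after their values were seen. The call of Hspa9 was lost without Sham 5 (limma adjusted p = 0.0501). Hspa5, the Hsp70 of the endoplasmic reticulum, also picked so, had a change of 0.28 ± 0.13 that did not pass (limma adjusted p = 0.108), but passed without MCAO 4 (0.0199) or Sham 1 (0.0494).

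J-domain proteins other than Dnajb1 were mostly near-constant (12 of 19). Of the 7 that varied 1 rose and 2 fell, beside 35.2% higher and 34.2% lower over all varying genes. Dnajc27 fell by 0.28 and Dnajc6 (auxilin, which helps to strip clathrin from vesicles) fell by 0.23. For both, all MCAO rats lay below all Sham rats, as for 1279 of the 12153 tested genes. Dnajc18 rose by 0.18 ± 0.06 (SE). The call of Dnajc18 was lost with quantile normalization, with equal array medians and without any of MCAO 3 to 6 or Sham 1 to 4 (limma adjusted p from 0.0507 to 0.0846 without an array). With single arrays left out the list had at most 3 higher and 2 or 3 lower. Dnaja1, another cytosolic partner of Hsp70, had a change of 0.21 ± 0.08 (limma adjusted p = 0.0545; picked after its value was seen) and passed without MCAO 2 (0.0456) or MCAO 4 (0.0152). On its probe set with the largest variance the change was 0.41 (limma adjusted p = 0.00214).

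Of the other nucleotide exchange factors 3 varied, and 2 of them rose. Bag1, which links Hsp70 to the proteasome, rose by 0.46 ± 0.11 (SE; limma adjusted p = 0.00683) with all MCAO rats above all Sham rats, and Bag5 rose by 0.21 ± 0.06, a call lost without Sham 4 (0.0559). Bag2, the varying gene left, had a change of 0.07 ± 0.03 (limma adjusted p = 0.0642) and passed without MCAO 2 (0.0262) or MCAO 7 (0.0167).

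The Hsp90 co-chaperones moved by small steps. Of 9 varying genes 6 rose and 1 fell, with a median of 0.19. Ptges3 (p23, which stabilises the closed form of Hsp90) rose by 0.31 ± 0.07 (SE; limma adjusted p = 0.00573) and the immunophilin gene Fkbp4 by 0.21 ± 0.05 (limma adjusted p = 0.00616). The 1 that fell was Tomm34, which assists mitochondrial import (-0.23 ± 0.05). Stip1 (Hop), which bridges Hsp70 and Hsp90, rose by 0.26 ± 0.06, picked after its value was seen.

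**Figure D5:**
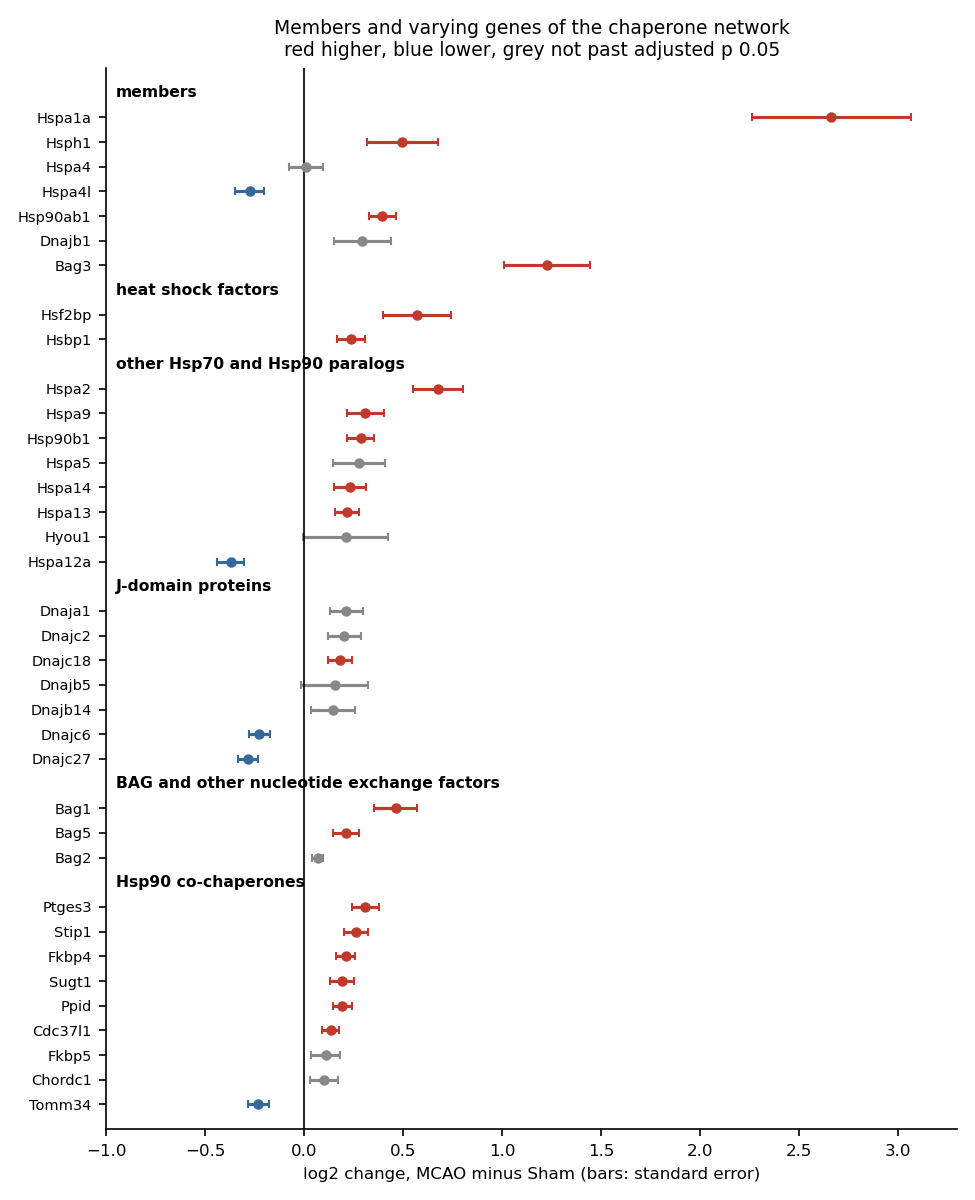
Log2 change, MCAO minus Sham, with its standard error (horizontal axis) for the 7 members and the 29 varying genes of 5 chaperone network lists; red passed as higher, blue as lower and grey did not pass. Hspa1a at 2.67 and Bag3 at 1.23 stand to the right of every network gene, the highest of which is Hspa2 at 0.68.

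Genes with the 3-unit element in their start window were described beside the rest. Of the 24 varying genes with it 50% were higher and 25% lower (median log2 change 0.26). Of the 5229 varying genes without it 35.4% were higher and 33.8% lower (median 0.03). None of the 24 was higher by 2-fold or more, against 3.12% of those without. With the 2-unit element, 41.3% of 583 varying genes were higher and 30.4% lower, against 34.8% and 34.2% of the 4670 without. These shares are descriptions of the array values and of letters in the sequence, and no test was made.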

How the data were processed

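Messenger RNA of the left hemisphere was measured with oligonucleotide arrays in 7 MCAO and 5 Sham rats. Per the labels' protocols, RNA was extracted with TRIzol and an RNeasy kit, and biotin-labelled cRNA was made from 100 ng. The deposited table holds 1 value per probe set and array, taken as log2 from its range, since no base is stated; how the authors summarised and normalised it is not given in the sources used here. Array medians spanned 0.05 log2 units, so values were used as deposited. GEO's annotation gave 20826 probe sets 1 gene, 436 several and 9780 none. Probe sets were tested where 5 or more arrays exceeded 6.61, the 25th percentile, each gene by the one with the highest mean. limma 3.58.1 in R 4.3.3 (lmFit, eBayes with trend, two-sided) was fitted over all genes, with Benjamini-Hochberg adjustment and a threshold of 0.05, and was tested on simulated data. No 2 arrays shared more than 1 identical value. P-values set the difference between the groups against the spread between these rats.

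The members and gene lists were chosen with earlier results of these data known. Named genes were all members, the 2 strongest genes of each list, the strongest of a minority direction, and the 3 genes most like each member with an absolute log2 change of at least 1; others are marked. Of 6 planned pairs, 3 could be run. Start windows came from RefSeq (GRCr8), which held all 7 measured members. Alternatives were other scalings, filters, probe set choices, variance models, array weights, a replicate block, exact permutation and leaving out each array.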

Additional observations from a re-analysis of the deposited data

Results flagged for a closer look

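Among the 14 groups of member values examined, 2 held a rat far from the others; chance gives about 1 in 20 such groups. MCAO 2 had an Hsp90ab1 log2 signal of 12.20, whereas the nearest other MCAO rat was at 12.49. Sham 3 had an Hspa1a signal of 6.95, with the nearest Sham rat at 7.09.

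Probe sets that the annotation assigns to several genes were left out of the comparisons, and 2 of the 4 that include a member symbol had every MCAO value above every Sham value. Among all tested genes 10.8% were separated in this way, and the share among probe sets of several genes was not counted. On 1368247_at, assigned to both Hspa1b and Hspa1a, the log2 difference was 3.13 (10.23 ± 0.83, SD, n = 7, against 7.10 ± 0.12, n = 5). On 1388850_at, assigned to Hsp90aa1 and its pseudogene Hsp90aa1-ps17, it was 0.52 (12.92 ± 0.07, n = 7, against 12.40 ± 0.17, n = 5). No test was made on these probe sets, and which gene each signal comes from cannot be told apart.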

How the results depend on the processing

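Hspa1a, Bag3 and Hsp90ab1 kept their rise and their side of the threshold in all 14 alternatives and without any of the 12 arrays in turn, with ranges without an array of 2.39 to 2.80, 1.11 to 1.37 and 0.37 to 0.44. Hspa4l fell in all 14 alternatives and kept its call in 13. Hsph1 kept its call in 10 of 14, and in 3 of 12 with an array left out. Hspa4, which did not pass, turned sign with equal array medians (-0.0028) and array weights (-0.045), and ranged from -0.028 to 0.055 without single arrays. Dnajb1 passed with array weights (0.25, limma adjusted p = 0.0225; 0.0225 to 0.212 over its alternatives) and in an unadjusted exact permutation test (p = 0.0417). The 3 pair differences kept direction and call in every alternative run. Rescaling an array by a constant cannot move a difference within it, so those alternatives do not test the pairs. Hspa4 and Hspa4l have a single probe set each. For their pair only quantile normalization and leaving out arrays could change the value. Network genes called lower numbered 7 with array weights against 4. The cause of these moves was not tested.

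The labels do not say that replicate numbers pair the rats, and the values are mixed: deviations of same-numbered rats correlated at -0.33 to 0.54, over 0.1 in 3 of 5 pairs, and 3 of 5 MCAO rats were nearest to their own number. The block was therefore kept as an alternative. With the replicate block, which leaves fewer degrees of freedom, all genes called numbered 1597 higher and 1531 lower against 2698 and 2688, network genes called higher 4 against 16, and member genes called lower 0 against 1 (limma; Hspa4l adjusted p = 0.0544, change -0.23; 1 was lower at an unadjusted p under 0.05, and 1 by the exact permutation test without the block). With the block Hsph1 had an adjusted p of 0.134, and the genes called higher fell from 6 to 1 among Hsp90 co-chaperones and from 5 to 1 among other Hsp70 and Hsp90 paralogs. The block also ended the calls of Tomm34 (limma adjusted p = 0.0777), Hsbp1 (0.0624), Hsf2bp (0.0804) and Dnajc18 (0.0506), with the same direction. Lost as well, with the same direction, were Hspa9 (limma adjusted p = 0.106), Hsp90b1 (0.0862), Ptges3 (0.0679), Fkbp4 (0.0616) and Stip1 (0.0557). Array weights brought Hspa5 (0.0139), Dnaja1 (0.00418) and Bag2 (0.00495) past the threshold. Signal near the filter value limits what can be read for weakly expressed genes.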

Other observations

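The other probe sets shared between a member and another gene overlapped between the groups. On 1398240_at, assigned to Hspa8, the constitutive Hsc70, together with Haus8l2, the log2 signal was 13.17 ± 0.08 (SD, n = 7) in MCAO and 13.19 ± 0.05 (n = 5) in Sham. On 1372701_at, assigned to Hsp90aa1 and Hsp90aa1-ps17, it was 13.16 ± 0.09 (n = 7) and 13.07 ± 0.03 (n = 5), a difference of 0.09 against 0.52 on the other probe set with the same assignment.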
